A study of Mus musculus with 24 samples.

Results

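The genes examined here were those of mouse chromosome 19 that P815 mastocytoma cells express. They were the genes that the deposited table places on chromosome 19 and that reached 1 FPKM (a level scaled to transcript length and library depth) in at least 3 of the 24 libraries. Another 9 genes were left out by name, namely Cd274, Pdcd1lg2, Psat1, Rrp12, Nolc1, Scd1, Scd2, Ms4a2 and Fosl1, of which 8 would have passed the same FPKM limit. This gave 442 members out of 12183 genes tested and out of 1394 chromosome 19 genes in the table. The set was singled out because the chromosome stood lower in cells with an Esr1 hairpin, so the hairpin differences below describe the choice. Counts of members that passed a threshold in the hairpin contrasts are likewise a description and no independent support. Of the members, 369 are protein-coding, 37 processed pseudogenes, 18 long noncoding RNAs, 8 miRNAs and 4 snoRNAs. At the edge of the FPKM limit, the third-highest library stood at 1.004 FPKM for Naaladl1, 1.02 for Sfxn4 and 1.03 for Lrrn4cl, which were members. It stood at 0.986 for AC115752, 0.976 for Gm14966 and 0.975 for 4833408A19Rik, which were not.

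P815 is a mouse mast cell tumour line, sequenced here from total RNA in 8 groups of 3 libraries. The study asked how estrogen and its receptor shape the transcriptome of these cells. NC cells carried a negative control vector and SH cells a vector with a short hairpin RNA against Esr1, the gene of estrogen receptor alpha; no time is stated for these groups. NC_E2 and SH_E2 cells carried the same vectors and received β-estradiol (E2) for 24 h. ICI cells received ICI-182780, an antiestrogen that leads to loss of the receptor, and Tamo cells received tamoxifen, a receptor modulator, each for 24 h. ICI_E2 and Tamo_E2 cells received the inhibitor together with E2 for 24 h. No dose or vehicle is labelled, and the inhibitor groups are not labelled as carrying a vector. All groups are the same line in serum-containing medium. The labels do not say whether hairpin cells were a mixed population or 1 clone, nor whether the 3 libraries of a group were separate cultures, so p-values measure the spread between these libraries, which may be technical.

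In most cells, the amount of RNA from a gene follows the number of DNA copies of that gene, and loss of a copy of a chromosome or arm lowers its genes together. Single genes can depart from that level through feedback, RNA stability or regulation from elsewhere, which is called dosage compensation where the level is restored. Tumour lines often carry more or fewer copies of whole chromosomes, and these can vary between cells of a line. DNA copy number was not analysed here, so fold steps such as 3 copies in place of 4 serve only as arithmetic reference lines.

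Promoters of 4 members are shown because they form pairs of neighbours that lie on opposite sides of the hairpin difference. Rtn3 and Fermt3 start within 1 Mb of each other and so do Dusp5 and Add3, yet Rtn3 and Dusp5 stood lower in hairpin cells and Fermt3 and Add3 higher. Each run holds 250 bases before and 50 bases after the RefSeq gene start on GRCm38.p6, 5′ to 3′ on the strand of the gene. Capitals mark matches on either strand to GGGCGG (GC box), AGGTCA (core site of the estrogen receptor) or CACGTG (E-box). They lie at chr19:7483242-7483541 on the minus strand (Rtn3), chr19:7019420-7019719 on the minus strand (Fermt3), chr19:53528895-53529194 on the plus strand (Dusp5) and chr19:53140193-53140492 on the plus strand (Add3).
Rtn3: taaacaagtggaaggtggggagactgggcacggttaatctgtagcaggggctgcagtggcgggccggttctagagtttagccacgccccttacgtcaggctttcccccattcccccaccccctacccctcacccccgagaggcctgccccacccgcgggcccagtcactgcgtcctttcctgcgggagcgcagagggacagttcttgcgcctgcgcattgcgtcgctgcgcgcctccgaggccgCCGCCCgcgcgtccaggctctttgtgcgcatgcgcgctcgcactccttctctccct
Fermt3: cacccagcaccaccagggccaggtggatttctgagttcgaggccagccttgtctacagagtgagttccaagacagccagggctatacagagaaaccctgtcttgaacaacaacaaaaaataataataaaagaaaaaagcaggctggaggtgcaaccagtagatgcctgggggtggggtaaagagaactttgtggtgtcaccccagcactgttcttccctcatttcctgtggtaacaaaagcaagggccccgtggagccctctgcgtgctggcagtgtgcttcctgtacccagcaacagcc
Dusp5: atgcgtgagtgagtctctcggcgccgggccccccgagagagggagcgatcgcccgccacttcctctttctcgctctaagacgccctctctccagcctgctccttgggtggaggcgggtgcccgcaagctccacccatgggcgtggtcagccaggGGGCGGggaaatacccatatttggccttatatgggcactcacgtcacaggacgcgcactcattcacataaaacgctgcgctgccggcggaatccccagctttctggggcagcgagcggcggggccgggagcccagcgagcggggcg
Add3: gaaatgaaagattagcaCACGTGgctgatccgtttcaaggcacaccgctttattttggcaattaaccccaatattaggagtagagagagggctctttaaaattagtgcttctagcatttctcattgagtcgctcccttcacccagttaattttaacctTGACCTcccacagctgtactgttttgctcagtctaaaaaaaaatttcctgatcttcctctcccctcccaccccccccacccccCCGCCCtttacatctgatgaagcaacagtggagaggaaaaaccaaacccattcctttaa
The lower pair has promoters rich in CpG, with 27 such dinucleotides in Rtn3 and 28 in Dusp5. The higher pair has few, with 3 in Fermt3 and 5 in Add3. These 4 genes were picked by their direction. Over the 310 coding members with a RefSeq promoter, Spearman's rho of the hairpin difference with CpG number was -0.064. Rtn3 and Dusp5 hold 1 GC box each, Add3 holds a GC box, a core site and an E-box, and Fermt3 holds none of the motifs searched.

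Promoter features were then counted over the members as a whole. A RefSeq promoter was matched for 320 members, 310 of them among the 369 protein-coding ones. Over those 310, the median GC content was 61.5% and the median CpG number 22, against 61.3% and 22 in 7689 other coding genes tested. Across these promoters, Spearman's rho of the hairpin difference was -0.017 with GC content and -0.064 with CpG number. The complete palindromic estrogen response element was found in 0 of the 310 promoters, 0 of the 7689 others and 0.0700% of all 32851 promoters in the RefSeq table. Its core letters AGGTCA, once, were in 12.6% of members' promoters, 11.8% of the others and 16.3% of all. The GC box GGGCGG was in 65.2% of members' promoters, 67.4% of the others and 35.7% of all, and the ETS core CCGGAA in 33.9%, 32.2% and 14.9%. The E-box CACGTG was in 8.71%, 10.9% and 7.15%, the AP-1 site TGANTCA in 5.48%, 4.50% and 7.81%, the cAMP response element TGACGTCA in 3.23%, 3.54% and 1.79%, and TATAAA in 7.74%, 6.28% and 13.6%. All motifs were searched on both strands, and a match to these letters is not a measured binding site. Of the matched coding members, 52 stood at or above 0 in the mean of both hairpin contrasts and 57 at or below log2(2/3). The median CpG number was 20 in the former and 22 in the latter, AGGTCA was in 7.69% and 17.5% of their promoters and the GC box in 59.6% and 70.2%. These groups were formed by the hairpin difference itself, and the differences were not tested.

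Library depth ran from 42.1 to 68.8 M estimated counts, of which the members took 1.45 to 2.69 M. Esr1 lay at 0.181 to 0.347 FPKM in the 6 hairpin libraries and at 0.161 to 0.520 FPKM in the other 18, so its level did not separate the hairpin libraries. Of 12 mast cell markers, 11 reached 1 FPKM, with summed levels of 998 to 1222 FPKM in hairpin and 788 to 1065 FPKM in other libraries. Of the markers of T cells, B cells and epithelium, 0 of 6, 0 of 5 and 0 of 4 reached 1 FPKM, and of those of macrophages and fibroblasts 3 of 5 and 1 of 5 did. The macrophage markers Csf1r and Mrc1 stayed under 0.1 FPKM in every library, and the sum of the macrophage list was 20.7 to 29.6 FPKM in hairpin and 17.6 to 28.5 FPKM in other libraries. The part of any of these markers in the results was not tested. In bulk RNA, fewer cells with a gene on and less RNA per cell cannot be told apart.

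The chromosome as a whole was read first in each library, as the median over members of the log2 ratio of CPM (counts scaled to library size) to the mean of the 3 NC libraries. The 6 hairpin libraries lay between -0.31 and -0.28 and the other 18 between -0.02 and 0.05, with no overlap and a gap several times the width of either range. Group means were -0.30 ± 0.02 in SH and -0.30 ± 0.01 in SH_E2, against 0.01 ± 0.01 in NC and 0.01 ± 0.03 in NC_E2 (SD, n = 3). The inhibitor groups had 0.01 ± 0.03 (ICI), 0.01 ± 0.02 (ICI_E2), 0.02 ± 0.03 (Tamo) and 0.01 ± 0.01 (Tamo_E2). The share of all counts that fell on chromosome 19 showed the same separation, at 3.54% to 3.6% in hairpin libraries and 4.33% to 4.54% in the others. In NC it was 4.45% ± 0.0118 and in SH 3.58% ± 0.0148 (SD, n = 3). In the same hairpin libraries the other chromosomes had medians of -0.06 to 0.16.

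**Figure D1:**
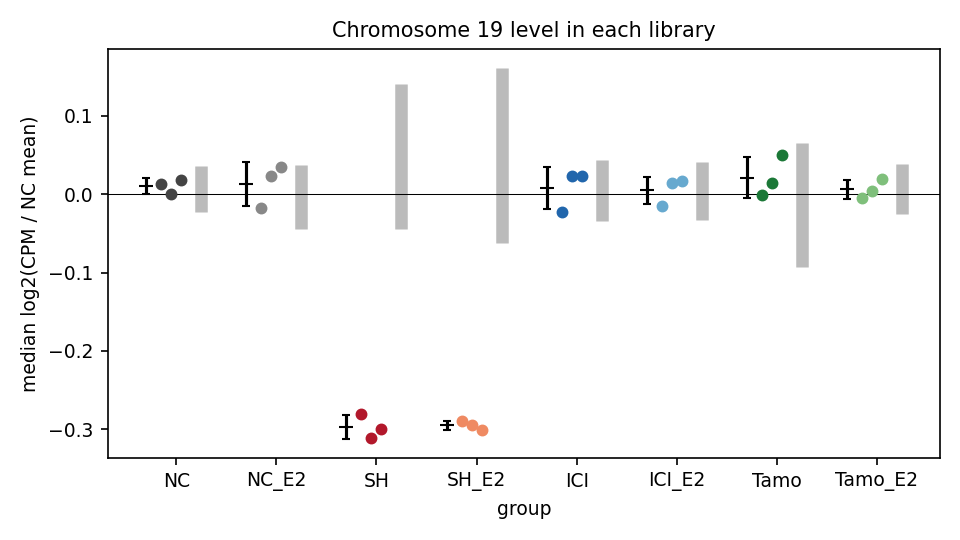
Median log2 ratio of CPM (counts scaled to library size) to the NC mean over the 442 members, for each of the 24 libraries (points, by group) with mean ± SD of each group (black); grey bars span the lowest and highest median of the other chromosomes in that group. The 6 hairpin libraries lie between -0.31 and -0.28, and the other 18 between -0.02 and 0.05.

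Libraries with the same replicate number gave the same picture pair by pair. Median log2 differences over members were -0.34 to -0.32 for SH against NC and -0.38 to -0.32 for SH_E2 against NC_E2 over the 3 pairs of each. Set against the inhibitor groups, they were -0.35 to -0.29 for SH against ICI and -0.39 to -0.29 for SH against Tamo. With E2 they were -0.38 to -0.29 against ICI_E2 and -0.39 to -0.29 against Tamo_E2. Pairs within an arm lay near 0, at 0.01 to 0.02 for NC_E2 against NC, -0.02 to 0.01 for SH_E2 against SH, -0.02 to 0.00 for ICI_E2 against ICI and -0.03 to -0.02 for Tamo_E2 against Tamo. The lower level of chromosome 19 was thus present in each hairpin library, with or without E2, against each kind of control.

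Among the chromosomes, 19 stood apart in both hairpin contrasts. Its median log2 fold change in the model over all libraries was -0.32 for SH against NC and -0.35 for SH_E2 against NC_E2, which is 79.9% and 78.5% of the control level. The medians of the other 18 autosomes and X ran from -0.05 (chromosome 6) to 0.13 (chromosome 3) without E2, and from -0.03 (chromosome 18) to 0.12 (chromosome 3) with it. Members under 0 made up 78.5% and 80.5% in the 2 contrasts, whereas 48.6% and 49.3% of the other autosomal genes were under 0.

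**Figure D2:**
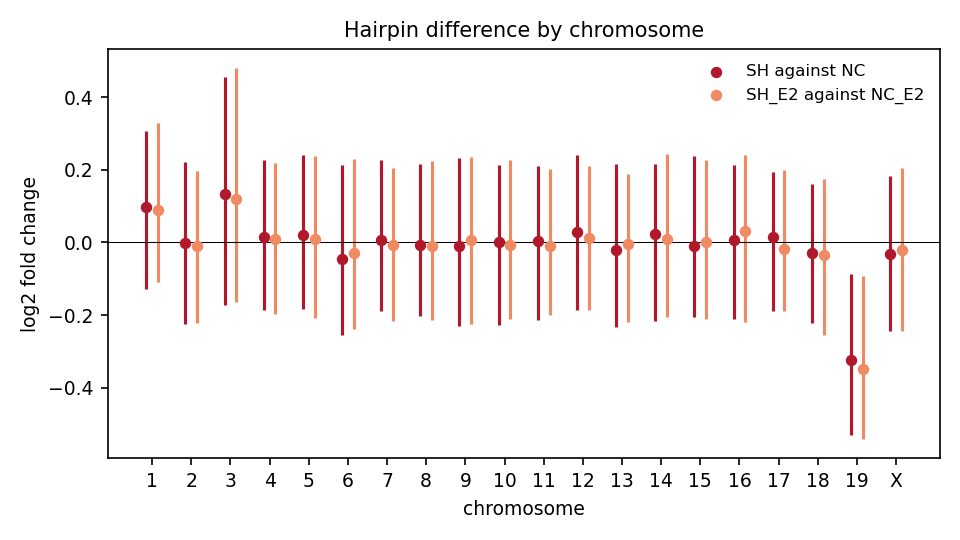
Median (point) and interquartile range (line) of the log2 fold change of the genes tested on each chromosome, for SH against NC (dark) and SH_E2 against NC_E2 (light). Chromosome 19 stands at -0.32 and -0.35, and the other medians lie between -0.05 and 0.13.

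The lower level was a shift of the whole distribution rather than a wider one. The interquartile range of members was 0.44 on the log2 scale for SH against NC and 0.45 for SH_E2 against NC_E2, and that of 11312 other autosomal genes was 0.44 in both. The quartiles of the members were -0.53 and -0.09 without E2 and -0.54 and -0.09 with it. Both contrasts were under 0 for 331 members, both at or above 0 for 70, and 41 had other combinations. Single genes carried a median standard error of 0.21, which is most of the size of the shift.

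Set against arithmetic dosage steps, the median lay short of log2(3/4), which is -0.42. In SH against NC, 174 members (39.4%) were at or below that step, 91 (20.6%) at or below log2(2/3) and 23 (5.20%) at or below log2(1/2). Of the remainder, 95 members stood at or above the control level. With E2, 171 members were at or below log2(3/4), 97 at or below log2(2/3), 32 at or below log2(1/2), and 86 at or above 0. The steps from log2(3/4) to log2(2/3) lie closer together than the standard error of a single gene, so separate steps could not have been told apart. Better measured genes lay a little lower. Their spread is given for the mean of both contrasts, which can narrow it. It is therefore not set against the ranges of single contrasts above. For 257 coding members with a mean of 5 FPKM or more, the median of the mean of both contrasts was -0.38, with quartiles of -0.52 and -0.16, and 166 of them lay within 0.25 of that median. Of these 257, both contrasts were under 0 for 213 and at or above 0 for 28. By quartile of expression level, the medians were -0.33, -0.26, -0.42 and -0.45 from the lowest to the highest quartile. Spearman's rho with the mean log2 FPKM was -0.22 over these genes, a description across genes that share libraries.

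The departures from the median were largely the same genes with and without E2. Across the 257 coding members, Pearson's r between the hairpin contrasts was 0.89 and Spearman's rho 0.85, with a median absolute difference of 0.08. The contrasts share no library, but all hairpin libraries come from the same kind of cells. Over all 442 members, r was 0.77.

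**Figure D3:**
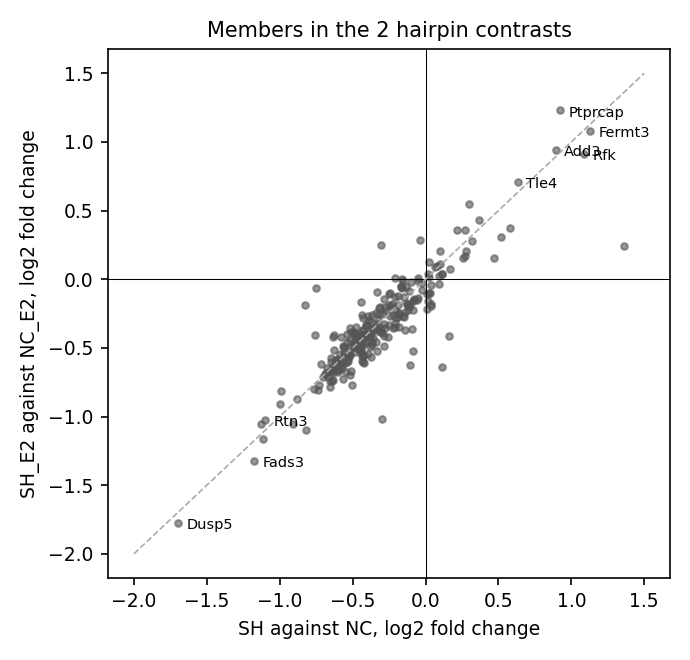
Log2 fold change of SH against NC (horizontal) and of SH_E2 against NC_E2 (vertical) for the 257 coding members with a mean of 5 FPKM or more; the dashed line marks equal values. Most points gather around the median of -0.38, 213 lie under 0 in both contrasts, and Dusp5 at -1.70 and -1.77 and Fermt3 at 1.13 and 1.08 lie near opposite ends of the line.

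In the model over all libraries (edgeR quasi-likelihood, Benjamini-Hochberg adjusted p under 0.05), 82 members passed as lower in SH against NC, where 4.15% of all genes tested did. In SH_E2 against NC_E2, 89 passed as lower, where 4.28% of all did, and 68 members passed in both. As higher, 10 and 9 passed, where 4.92% and 5.3% of all did. With the replicate number as a block, the lower counts were 175 and 183 (10.2% and 10.5% of all genes) and the higher ones 19 and 20 (11% and 11.4% of all). All 6 hairpin libraries lay below all 18 others for 61 members (2.91% of all genes) and above them for 8 (6.04% of all). These counts come from the contrast that chose the chromosome and describe it.

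Position along the chromosome was examined next. The median over members was under 0 in each 10 Mb window in both hairpin contrasts. The medians without and with E2 were -0.34 and -0.38 in the first 10 Mb (190 members), -0.40 and -0.41 from 10 to 20 Mb (49) and -0.15 and -0.18 from 20 to 30 Mb (40). They were -0.22 and -0.19 from 30 to 40 Mb (38), -0.32 and -0.30 from 40 to 50 Mb (90) and -0.44 and -0.34 beyond 50 Mb (35). Over all members, the stretch from 20 to 40 Mb thus lay nearest to the control level and both ends lower. The 20 to 30 Mb window also held 9 of the 37 pseudogenes. With only the coding members of 5 FPKM or more, the window from 20 to 30 Mb still lay highest, at -0.24 and -0.20 (19 genes). The 30 to 40 Mb window of these genes stood at -0.36 and -0.27 (24 genes). Without E2 it was thus close to the first 10 Mb and to 40 to 50 Mb, both at -0.37. The windows from 10 to 20 Mb and beyond 50 Mb lay lowest without E2, at -0.45 (28 genes) and -0.47 (17 genes).

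Over 15 neighbouring coding members, the running median of the mean hairpin difference was lowest at -0.60, from Fkbp2 to Wdr74 (6.98 to 8.74 Mb). It was highest at -0.10, from Cdc37l1 to Atad1 (29.0 to 32.7 Mb), and it did not reach 0 anywhere. Next neighbours were hardly alike beyond that, with a Spearman's rho of 0.06 over 256 neighbouring pairs. In ICI against NC, the window medians of the same coding members lay between -0.01 and 0.02. In Tamo against NC they lay between -0.15 (30 to 40 Mb) and 0.07 (first 10 Mb), so a slow drift along the chromosome was also present there, on a smaller scale and around 0. ICI, Tamo and SH were all compared with the same NC libraries.

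**Figure D4:**
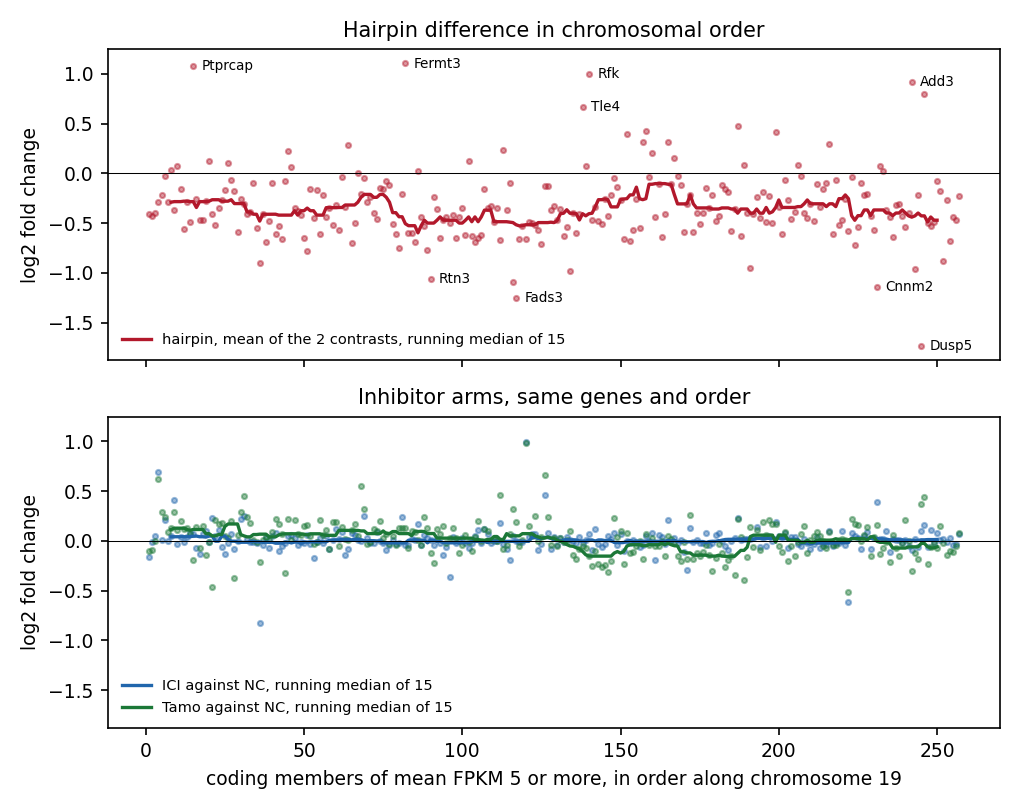
Log2 fold change of the 257 coding members of 5 FPKM or more in order along chromosome 19, as points with a running median over 15 genes: the mean of both hairpin contrasts above, ICI and Tamo against NC below. The hairpin running median stays between -0.60 and -0.10, while the inhibitor curves lie around 0.

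Genes were then grouped by role, from lists written for chromosome 19 with its lower level known, so their direction is not independent evidence. Beside each list stand the medians of all members, -0.32 and -0.35, and of the other genes tested, 0.01 and 0.01. Of all genes tested, 4.15% and 4.28% passed as lower and 4.92% and 5.3% as higher. Among all members, 18.6% and 20.1% passed as lower. The lists are small and chosen by hand, so their counts are a description. RNA processing and decay genes had medians of -0.43 and -0.44. Of its 20 members, 18 were under 0 in SH against NC, and 8 and 11 passed as lower in the contrasts without and with E2. Polr2g, a subunit of RNA polymerase II that the transcription list holds, stood lower than the median of either list. It had 114, 119 and 110 FPKM in NC, 127, 128 and 124 in NC_E2, 77.3, 75.6 and 76.8 in SH and 84.1, 85.0 and 77.9 in SH_E2. The 18 libraries without the hairpin ran from 99.0 to 140 FPKM (median 119), so the groups did not overlap. Its log2 fold changes were -0.64 ± 0.10 and -0.67 ± 0.10 (SE).

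Sf3b2, part of the splicing complex SF3b, had 67, 71.8 and 69.3 FPKM in NC, 45.3, 53.4 and 48.4 in SH and 49.2, 53.8 and 50 in SH_E2. The 18 others ran from 65.1 to 75.3 FPKM (median 69.4), again with no overlap, and the log2 fold changes were -0.56 ± 0.08 and -0.54 ± 0.08. Prpf19, a spliceosome ubiquitin ligase, stood at -0.37 in both contrasts. The nucleolar chaperone Npm3 stood at -0.57 and -0.65. Sf1, which binds the branch point of introns, departed from its list: its values of 26.8 to 43.4 FPKM in the 6 hairpin libraries lay inside the span of 27.7 to 52.8 FPKM of the others but for 1 library, with log2 fold changes of -0.03 and -0.08.

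Chromatin and transcription genes had medians of -0.35 and -0.33 over 28 members, of which 6 and 7 passed as lower and 1 as higher in each contrast. The repressor Drap1 stood at -0.44 and -0.52, Mta2 of a histone deacetylase complex at -0.33 and -0.32, and the corepressor Rcor2 at -0.44 and -0.43. Genes of DNA replication, repair and mitosis had medians of -0.39 and -0.35 over 27 members, with 5 and 4 passed as lower and 0 as higher. Ddb1, the adaptor of a ubiquitin ligase that acts at damaged DNA, had 141, 147 and 148 FPKM in NC, 72.2, 105 and 101 in SH and 69.0, 97.6 and 106 in SH_E2. All 18 other libraries had 130 FPKM or more (median 146, highest 170), and the log2 fold changes were -0.70 ± 0.15 and -0.71 ± 0.15. In both hairpin groups replicate 1 was the lowest library for Ddb1. Banf1, a chromatin-binding protein of the nuclear envelope, stood at -0.99 and -0.82 but with a standard error of 0.37.

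Cytosolic translation genes, among the most abundant transcripts of the chromosome, had medians of -0.34 and -0.42 over 6 members, and 1 passed as lower in each contrast. Eif3a, a core subunit of initiation factor eIF3, was that member, with 108, 98.7 and 91.7 FPKM in NC, 80.7, 69.9 and 71.3 in SH and 76.4, 63.1 and 73.8 in SH_E2. The 18 others ran from 83.2 to 108 FPKM (median 98.3) without overlap, and the log2 fold changes were -0.48 ± 0.09 and -0.46 ± 0.09. Eef1g, an elongation factor subunit and the coding member of highest mean level, had 811, 630 and 705 FPKM in NC against 661, 553 and 590 in SH. Its hairpin libraries overlapped the 18 others, which spanned 494 to 870 FPKM, and its log2 fold changes were -0.31 ± 0.17 and -0.39 ± 0.17. Fau, which encodes a ribosomal protein fused to a ubiquitin-like protein, stood at -0.38 and -0.50.

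Mitochondrial ribosome and respiratory chain genes had medians of -0.28 and -0.36 over 17 members, with 2 passed as lower in each contrast and 0 as higher. Cox8a, a subunit of cytochrome c oxidase, had 480, 453 and 513 FPKM in NC, 548, 494 and 567 in NC_E2, 356, 278 and 332 in SH and 363, 335 and 302 in SH_E2. The lowest of the 18 others had 425 FPKM (median 499), so the groups did not overlap, and the log2 fold changes were -0.64 ± 0.12 and -0.74 ± 0.12. Ndufs8 and Mrpl43, of respiratory complex I and the mitochondrial ribosome, stood nearer the control level, at -0.20 and -0.23 and at -0.28 and -0.33.

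Metabolic enzymes and transporters had medians of -0.36 and -0.40 over 27 members, with 5 passed as lower and 1 as higher in each contrast. Fads2 and Fads3, desaturase genes, both stood low. Fads3 had 7.22, 9.11 and 7.14 FPKM in NC, 2.96, 3.93 and 3.92 in SH and 2.52, 3.59 and 4.21 in SH_E2. The 18 others ran from 5.79 to 10.3 FPKM (median 8.29) without overlap, with log2 fold changes of -1.18 ± 0.21 and -1.32 ± 0.21. Fads2 stood at -0.68 ± 0.32 and -0.64 ± 0.32, with a larger error than Fads3. Slc3a2, the heavy chain of amino acid transporters, was at -0.33 and -0.38, and the glycolytic enzyme Pgam1 at -0.22 and -0.26.

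Fth1, the ferritin heavy chain that stores iron, was a highly expressed member whose libraries overlapped between groups. It had 450, 557 and 537 FPKM in NC, 409, 459 and 523 in SH and 424, 523 and 492 in SH_E2. The 18 others spanned 260 to 666 FPKM (median 511), a range that holds all hairpin libraries. The log2 fold changes were -0.21 ± 0.27 and 0.01 ± 0.27, so its values cover both no difference and the median of the chromosome.

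Secretory pathway, lysosome and vesicle genes had medians of -0.33 and -0.37 over 25 members, with 5 and 9 passed as lower and 1 as higher in each contrast. Rtn3, a reticulon that shapes the tubules of the endoplasmic reticulum, combined a large difference with little spread. It had 87.0, 77.5 and 81.9 FPKM in NC, 83.9, 76.1 and 79.1 in NC_E2, 40.1, 39.2 and 40.4 in SH and 41.8, 39.7 and 40.3 in SH_E2. The 18 others ran from 62.6 to 87.0 FPKM (median 80.8), far above the hairpin libraries, and the log2 fold changes were -1.10 ± 0.09 and -1.02 ± 0.09. Rtn3 was thus near the log2(1/2) step, well under the median of its chromosome.

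Ganab, the catalytic subunit of glucosidase II in glycoprotein folding, had 78.9, 82.6 and 80.8 FPKM in NC, 56.1, 56.8 and 54.3 in SH and 53.2, 51.8 and 56.3 in SH_E2. The 18 others had 76.3 to 88.9 FPKM (median 80.3) without overlap, and the log2 fold changes were -0.59 ± 0.07 and -0.65 ± 0.07. Rab3il1, an exchange factor for Rab GTPases of secretory vesicles, had 41.5, 48.0 and 34.4 FPKM in NC, 20.3, 22.4 and 16.5 in SH and 23.0, 21.2 and 16.3 in SH_E2, under the span of 31.9 to 69.6 FPKM (median 41.7) of the others. Its log2 fold changes were -1.13 ± 0.20 and -1.05 ± 0.20. Slc18a2, the transporter that loads mast cell granules with monoamines such as histamine, stood at -0.29 and -0.26, close to the median of the chromosome.

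Signalling, survival and cytoskeleton genes lay nearer to the control level than the lists above, with medians of -0.20 and -0.22 over 30 members. They were also the most divided list, with 6 and 7 passed as lower and 4 as higher in each contrast. Of all genes tested, 4.15% and 4.28% passed as lower and 4.92% and 5.3% as higher. Cfl1, cofilin, which severs actin filaments, had 312, 355 and 409 FPKM in NC, 191, 260 and 260 in SH and 197, 281 and 267 in SH_E2. The lowest of the 18 others had 300 FPKM (median 358, highest 459), so the groups did not overlap, and the log2 fold changes were -0.65 ± 0.20 and -0.67 ± 0.20. Ppp1ca, a catalytic subunit of protein phosphatase 1, stood at -0.40 and -0.54, while the receptor kinase Grk2 stood at -0.04 and 0.29 and the cytokine receptor kinase Jak2 at 0.27 and 0.36.

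Dusp5, a nuclear phosphatase that switches off ERK, was the lowest of the coding members of 5 FPKM or more (ENSMUSG00000034765, GRCm38 chr19:53529109-53542431). It had 12, 20.6 and 18 FPKM in NC, 13.1, 17.9 and 22.9 in NC_E2, 3.49, 7.73 and 4.98 in SH and 3.99, 7.38 and 4.93 in SH_E2. The 18 others spanned 11.5 to 26.1 FPKM (median 18.2), all above the hairpin libraries. The log2 fold changes were -1.70 ± 0.36 and -1.77 ± 0.36, past the log2(1/2) step. Replicate 1 was the lowest library in NC, NC_E2, SH and SH_E2, so the spread within groups followed the replicate number. Cnnm2, of magnesium transport, stood at -1.12 ± 0.43 and -1.17 ± 0.43, and Pik3ap1, an adaptor of phosphoinositide 3-kinase, at -1 ± 0.43 and -0.91 ± 0.43, and for both the hairpin libraries overlapped the others. Dtx4, a ubiquitin ligase of the Deltex family, had 7.34 to 13.1 FPKM in hairpin and 14.8 to 21.5 FPKM in other libraries, with log2 fold changes of -0.91 ± 0.20 and -1.05 ± 0.20.

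A smaller number of members stood higher in hairpin cells, against the direction of their chromosome. In both contrasts 9 members passed as higher, namely Unc93b1, Ptprcap, Fermt3, Tle4, Rfk, Fas, Entpd1, Add3 and Grk5. The limit of 1 FPKM in 3 libraries can be met by the 6 hairpin libraries alone, and also by the 18 others alone. Higher members near it, such as Fas (mean 1.21 FPKM) and Entpd1 (mean 0.835 FPKM), may have entered the set through the hairpin libraries. Lower members of low level, such as Elovl3 (mean 0.710 FPKM) and Mir6986 (mean 0.528 FPKM), may have entered through the others. Fermt3 encodes kindlin-3, which activates integrins in blood cells (ENSMUSG00000024965, GRCm38 chr19:6998958-7019469). It had 9.83, 9.08 and 7.76 FPKM in NC, 11.6, 10.9 and 7.74 in NC_E2, 18, 21.2 and 21.5 in SH and 23.9, 21.4 and 20.9 in SH_E2. The 18 others spanned 6.81 to 12.8 FPKM (median 8.32), under every hairpin library, and the log2 fold changes were 1.13 ± 0.17 and 1.08 ± 0.17.

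Add3 encodes gamma-adducin of the membrane skeleton (ENSMUSG00000025026, GRCm38 chr19:53140443-53247399). It had 7.68, 6.44 and 8.23 FPKM in NC, 6.34, 6.08 and 6.10 in NC_E2, 14.5, 14.2 and 14.6 in SH and 12.4, 9.74 and 14.7 in SH_E2. The others reached at most 8.23 FPKM (median 6.41), and the log2 fold changes were 0.89 ± 0.13 and 0.94 ± 0.13. Rfk, riboflavin kinase, which makes the cofactor FMN, had 9.11, 9.42 and 6.51 FPKM in NC, 21.4, 18 and 16.1 in SH and 20.7, 15.8 and 14.7 in SH_E2. The others reached at most 10.6 FPKM (median 8.13), with log2 fold changes of 1.09 ± 0.19 and 0.91 ± 0.19.

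Unc93b1, which carries Toll-like receptors to endosomes, was low in cells without the hairpin, at 1.72 to 2.86 FPKM (median 2.19). It had 7.42, 4 and 4.85 FPKM in SH and 6.5, 3.85 and 5.01 in SH_E2, with log2 fold changes of 1.38 ± 0.24 and 1.24 ± 0.24. Fas, a death receptor, was at 0.364 to 1.22 FPKM (median 0.738) in the 18 others, 3.42, 1.68 and 1.93 in SH and 4, 1.96 and 2.11 in SH_E2, with log2 fold changes of 1.57 ± 0.44 and 1.90 ± 0.45. Neither gene overlapped between hairpin and other libraries. Tle4, a Groucho family corepressor, stood at 0.64 ± 0.15 and 0.71 ± 0.15, with 9.65 to 13.5 FPKM in hairpin and at most 8.18 in other libraries. Ptprcap, which binds the leukocyte phosphatase CD45, stood at 0.92 and 1.23 ± 0.23. Its lowest SH library (16.0 FPKM) lay under the highest of the 18 others (16.4 FPKM), so these groups overlapped. Pdlim1, a protein of actin stress fibres, stood at 0.58 ± 0.33 and 0.37 ± 0.33 and Insl6, of the insulin family, at 0.30 ± 0.25 and 0.55 ± 0.25, also with overlap.

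**Figure D5:**
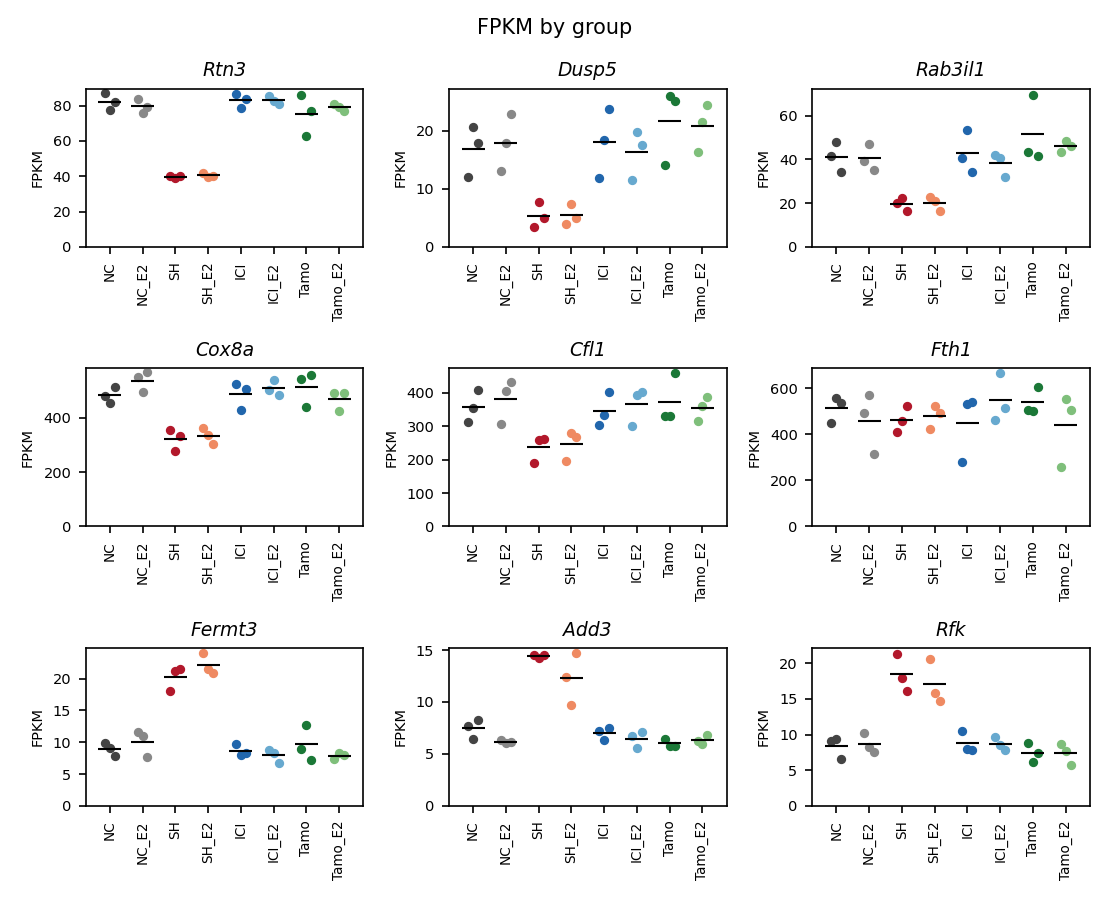
FPKM of 9 members in the 3 libraries (points) of each of the 8 groups, with the group mean as a line; axes start at 0. Rtn3, Dusp5, Rab3il1, Cox8a and Cfl1 lie lower in both hairpin groups, Fth1 overlaps between all groups, and Fermt3, Add3 and Rfk lie higher in both.

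Lower and higher members lay side by side. Within the stretch of lowest running median, Vegfb (from 6.98 Mb), Fermt3, Stip1, Cox8a and Rtn3 (from 7.43 Mb) lie in this order. Vegfb, a vascular growth factor, stood at -0.73 and -0.77, and Stip1, a cochaperone that links Hsp70 and Hsp90, at -0.62 and -0.59. Fermt3 between them was the exception. Near 53 Mb the order was Gm30381, Add3, Mxi1, Smndc1, Dusp5, Nutf2-ps1 and Smc3. Mxi1, a transcriptional repressor that pairs with Max, stood at -0.82 ± 0.18 and -1.10 ± 0.19. Its libraries held 5.76, 8.29 and 7.23 FPKM in SH and 6.89, 5.84 and 5.11 in SH_E2 against 8.78 to 14.3 FPKM (median 12.1) in the 18 others. The splicing factor Smndc1 stood at -0.29 and -0.15, and the cohesin subunit Smc3 at -0.54 and -0.46.

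Gm30381, a long noncoding RNA on the same strand as Add3 and upstream of it (chr19:53128684-53131793), was nearly absent from hairpin cells. Its FPKM was 1.16, 1.38 and 1.30 in NC and 0.687 to 3.25 (median 1.21) over the 18 libraries without the hairpin, where it had 44 to 222 estimated counts. It had 0 counts in all SH libraries and at most 4 in an SH_E2 library. Against a floor of 12 estimated counts per library, SH was at least 8.21-fold lower than NC. Gm30381 met the limit of 1 FPKM only through libraries without the hairpin and was picked after its values were seen. The difference is therefore a description.

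Other noncoding members were mixed. Long noncoding RNAs had medians of -0.72 and -0.55, with Neat1, the RNA of paraspeckles, at -1.41 and -1.33 ± 0.50, Snhg1, a host of snoRNAs, at -0.60 and -0.47, and Malat1, of nuclear speckles, at -0.31 and -0.07. Malat1 ran from 12.5 to 71.2 FPKM in the 18 libraries without the hairpin, which covers its hairpin libraries apart from 1. The 8 miRNA and 4 snoRNA entries had medians of -0.46 and -0.70 and of -0.95 and -1.28, but such short entries are counted from few reads of a total RNA library. Snora57 stood at -0.64 and -1.40 and Mir6986 at -1.38 and -2.01. Gm27505, a short RNA entry within Neat1, had 0.148 to 0.206 FPKM in SH and 21.2 to 62.2 FPKM in NC. It had 1 SH_E2 library at 19.3 FPKM and 1 NC_E2 library at 0.254 FPKM, so hairpin and other libraries overlapped. The 37 processed pseudogenes lay closer to 0, at -0.10 and -0.11, with 17 under 0 in both contrasts. All hairpin libraries lay below all others for 0 of them and for 2.91% of all genes, so nothing is read from that count. Reads of pseudogenes can come from the parent genes on other chromosomes, so their level is uncertain. Rps12-ps3, the member of highest mean level (924 FPKM), stood at -0.44 and -0.37, and Rpl10-ps6 at 0.25 and 0.62. The same holds for entries with near-identical copies, such as Gstp3 at -1.85 and -1.98 and the Ifit genes. Ifit1, Ifit2 and Ifit3, the interferon-induced members, stood at -0.15 and -0.28, -0.44 and -0.17, and 1.03 and 1.18. Their standard errors were 1.07, 0.83 and 0.92 in either contrast, so these values are uncertain. Since the strand of the libraries is not stated, reads of overlapping or antisense genes cannot be separated.

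The 12 contrasts that the choice of members did not use were tested: E2 in each of the 4 arms and on average, the difference of the E2 effect between SH and NC, each inhibitor against its control without and with E2, and both inhibitors against each other without and with E2. Several of these share NC or SH libraries, with or without E2, with the hairpin contrasts. The difference of the E2 effects is also the difference between both hairpin contrasts. In edgeR's quasi-likelihood test with Benjamini-Hochberg adjustment over all 12183 genes, 0 members passed in any of the 12. Members at an unadjusted p under 0.05 numbered from 2 (0.452%) to 16 (3.62%) per contrast. With the replicate block such members numbered from 4 to 38 and 0 passed. Limma on log2(FPKM + 1) also called 0 members, and DESeq2 called 1, in Tamo against NC. Medians over members lay between -0.03 and 0.03 in all 12 contrasts.

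E2 did not move the chromosome detectably in either vector arm. In NC the median over members was 0.01, 10 members (2.26%) had an unadjusted p under 0.05 and 0 passed, as did 0% of all genes, of which 2% had such a p. In SH the median was -0.00, 5 members (1.13%) had such a p and 0 passed, as did 0% of all genes, of which 1.34% had such a p. The difference of the E2 effects, which tests whether the hairpin difference changed with E2, had a median of -0.01, 6 members (1.36%) at an unadjusted p under 0.05 and 0 that passed, against 1.14% and 0% of all genes. Rom1, a photoreceptor disc protein of low level here, had the smallest p in 2 of these contrasts among members without predicted or clone names. It had 2.29, 3.37 and 3.20 FPKM in NC, 5.11, 3.88 and 3.68 in NC_E2, 2.69, 2.53 and 2.59 in SH and 2.22, 1.57 and 2.45 in SH_E2. NC_E2 was above NC in all libraries and SH_E2 below SH in all libraries, but the log2 difference of -0.83 ± 0.28 had an adjusted p of 1 in edgeR's quasi-likelihood test.

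In the inhibitor arms, E2 gave a median of -0.00 with ICI and -0.03 with tamoxifen, with 3 (0.679%) and 16 (3.62%) members at an unadjusted p under 0.05 and 0 that passed, against 1.84% and 3.56% of all genes at such a p. Over the 4 arms the mean E2 effect had a median of -0.01 and 6 members (1.36%) at such a p, and 0 passed, whereas 0.0575% of all genes passed and 2.42% had such a p. Ndufs8, a subunit of respiratory complex I, had 64.7, 56.0 and 79.1 FPKM in Tamo and 50.6, 50.4 and 49.9 in Tamo_E2. The groups did not overlap, with a log2 fold change of -0.41 ± 0.13 and an edgeR quasi-likelihood adjusted p of 1.

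Without E2, members had a median of 0.01 in ICI against NC and 0.03 in Tamo against NC, with 2 (0.452%) and 12 (2.71%) at an unadjusted p under 0.05 and 0 that passed. Of all genes, 0.977% and 3.53% had such a p and 0.00821% passed in each. With E2, the medians were -0.00 for ICI_E2 and -0.02 for Tamo_E2 against NC_E2, with 4 (0.905%) and 10 (2.26%) members at such a p and 0 that passed, against 1.44% and 2.47% of all genes at such a p. ICI differed from Tamo by a median of -0.02 without E2 and 0.01 with it, with 12 (2.71%) and 4 (0.905%) members at such a p and 0 that passed, against 3.22% and 2.02% of all genes at such a p.

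With the replicate block in the model, more members and more genes in general had an unadjusted p under 0.05, and 0 members passed. For E2 these were 20 members in NC (4.34% of all genes), 13 in SH (2.39%), 9 in ICI (3.96%), 36 in Tamo (8.81%), 14 on average (5.43%) and 7 for the difference between SH and NC (1.96%). For the inhibitors they were 4 in ICI against NC (1.95% of all genes), 38 in Tamo against NC (8.77%), 7 in ICI_E2 (2.74%) and 30 in Tamo_E2 (6.48%) against NC_E2. Between the inhibitors they were 26 without E2 (8.09%) and 22 with it (5.48%).

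Among members without predicted or clone names, Fam204a had the smallest p in Tamo against NC and in ICI against Tamo. It had 4.80, 4.46 and 4 FPKM in NC, 5.14, 3.95 and 4.44 in ICI and 3.83, 2.90 and 3.28 in Tamo. The Tamo libraries lay below those of both other groups, with log2 differences of -0.40 ± 0.12 for Tamo against NC and 0.42 ± 0.12 for ICI against Tamo, each with an edgeR quasi-likelihood adjusted p of 1. Dusp5 and Rtn3, among the lowest members in hairpin cells, stood at 0.10 and 0.01 in ICI against NC and at 0.37 and -0.12 in Tamo against NC. Fermt3 and Rfk, among the highest, stood at -0.04 and 0.07 in ICI and at 0.13 and -0.15 in Tamo, while Add3 was at -0.09 and -0.30. The larger of these, for Dusp5 and Add3 in Tamo, had standard errors of 0.35 and 0.13 and did not pass.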

How the data were processed

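Total RNA of P815 cells was sequenced in 24 libraries. The submitters' processing notes name cutadapt, HISAT2 and GRCm38. Not given in the sources used here are their versions, the quantifier, the annotation and the strand. A table of 55385 genes, deposited by the authors, holds FPKM values and counts per gene for each library, per the file headers. The authors' deposited counts were taken as estimated counts, not normalized, because 16.2% of the values between 1 and 40 equal 4, and were rounded. Reads shared between gene copies may be split by the authors' counting.

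Genes with 1 FPKM or more in at least 3 libraries were tested. TMM factors of 0.969 to 1.05 scaled the counts, and edgeR 4.0.16 fitted a quasi-likelihood model to all libraries with a coefficient for each group. Tests were two-sided, adjusted by Benjamini-Hochberg over all 12183 genes, with a threshold of 0.05. Errors of log2 fold changes are SE and those of group values SD. An exact permutation test of 3 libraries against 3 cannot go below 0.1, so no single-value test was run. The procedure was tested on simulated data. Alternatives used DESeq2 1.42.0, limma 3.58.1 on log2(FPKM + 1) or log2(FPKM + 0.1), other filters and scaling genes, left-out libraries and a replicate block.

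Libraries of different groups with the same replicate number deviated together in 36 of 36 library pairs examined (r 0.181 to 0.777 over 5633 genes). The numbers thus pair the libraries, a pairing that comes from the data and the titles. The members and lists were chosen with earlier results of these data known. Genes named are the 8 lowest and 8 highest members of 5 FPKM or more by the mean of both hairpin contrasts, the 4 lowest and 4 highest of the others, passing over predicted or clone names, the 10 of highest mean level, those with the smallest p in the other contrasts and the highest of each list. Neighbours of these, and Klf9, Jak2, Gm30381, Gm27505, Pik3ap1 and Insl6, were also chosen after their values were seen.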

Additional observations from a re-analysis of the deposited data

How the results depend on the processing

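The median over members stayed under 0 in both hairpin contrasts under all alternatives run. It was smaller with limma on log2 of FPKM plus a pseudocount, which changes both the scaling and the low values, and the cause was not tested: -0.22 (SH against NC) and -0.25 (SH_E2 against NC_E2) with a pseudocount of 1, and -0.27 and -0.30 with 0.1. It was -0.34 without E2 over members of 5 FPKM or more. Scaling factors computed without chromosome 19 gave -0.34 and -0.36. Leaving out 1 library at a time gave medians of -0.33 to -0.31 and of -0.35 to -0.31, the last without replicate 3 of NC_E2, and counts of lower members of 59 to 71 and of 62 to 81. Members passing as lower numbered 40 and 42 when only the 6 libraries of a contrast were fitted, with fewer residual degrees of freedom, and 175 and 183 with the replicate block; the cause of the latter was not tested. With the block, 19 and 20 members passed as higher, against 10 and 9 without it, and 0 passed in the 12 other contrasts. DESeq2 called 1 member, Gm10819, in Tamo against NC. Counts divided by 4, chosen after seeing the data, gave 84 and 88 lower members. In windows of 5 Mb, the lowest medians were -0.54 and -0.45 and the highest -0.06 and -0.06. Of 2460 values of named genes under alternatives, 19 moved beyond their spread. The sign differed in 38, in 0 of them for a gene that passed.

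Depth limits members of low level, short noncoding entries above all, and a standard error of 0.21 per gene leaves a shift of 0.32 undetected in most single members.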

Other observations

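Members with a mean under 5 FPKM also lay on both sides of the chromosome's median. Klf9, a zinc finger transcription factor, had 3.74, 3.86 and 3.75 FPKM in NC, 1.26, 1.77 and 1.97 in SH and 1.24, 1.66 and 1.65 in SH_E2, with log2 fold changes of -1.24 ± 0.21 and -1.26 ± 0.21. Its hairpin libraries overlapped the lowest of the 18 others, at 1.84 FPKM. Grk5, a kinase of G protein-coupled receptors, stood at 1.14 and 1.08 ± 0.22, and Entpd1, the ectonucleotidase CD39, at 0.84 and 0.95 ± 0.25. With a mean of 0.835 FPKM, Entpd1 may be a member only through its hairpin libraries. Nutf2-ps1, named as a pseudogene but counted among the coding members of 5 FPKM or more by its listed type, stood at 1.36 ± 0.40 without E2 and at 0.24 ± 0.39 with it, and the difference did not pass edgeR's quasi-likelihood test (adjusted p = 1). The fatty acid elongase gene Elovl3 stood at -1.56 and -1.87. With a mean of 0.710 FPKM, Elovl3 may be a member only through libraries without the hairpin. Of 2 entries with the symbol Zfp91, the one with a mean of 34.2 FPKM stood at -0.61 and -0.59 and the one with a mean of 1.34 FPKM at -2.60 and -1.83.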
